A study of Mus musculus with 6 samples.

Results

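The genes described here are 10 inhibitors and targets of the ERK kinase cascade, chosen by name: the phosphatase genes Dusp4, Dusp5 and Dusp6, the Sprouty genes Spry1, Spry2 and Spry4, the Spred genes Spred1 and Spred2, and the ETS factor genes Etv4 and Etv5. All 10 are among the 23999 genes of the count table, and all 10 were among the 14458 that passed the filter on low counts. The cells were mouse embryonic stem cells, pluripotent cells of the early embryo grown in culture. By their labels all 6 samples carried a floxed -5 element and an exogenous mNanogV5 copy, and the series title places the work on an enhancer of Nanog. They received ethanol (vehicle, n = 3) or 4-hydroxytamoxifen (4OHT, n = 3) for 6 days, and polyadenylated RNA was sequenced. 4OHT is a common trigger for Cre recombinase fusions that respond to it. The labels name no Cre, no promoter for the Nanog copy and no clone, and they do not say whether replicates were separate cultures, so p-values measure only the spread between these samples. No group of cells without the floxed element was given 4OHT, so removal of the element and exposure to the drug cannot be told apart.

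FGF ligands such as FGF4 bind FGF receptors on stem cells and act through RAS, RAF and MEK to phosphorylate ERK, a signal that moves mouse stem cells out of naive pluripotency. ERK activity induces its own inhibitors. DUSP phosphatases dephosphorylate ERK, Sprouty proteins act between the receptor and RAF, and SPRED proteins bring the RAS inactivator neurofibromin to the membrane. ETV4 and ETV5 are ETS transcription factors whose genes are induced by FGF and ERK signalling in many embryonic tissues.

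Library totals ran from 20030423 to 55194644 counts except in 4OHT replicate 2, which held 515388. There 1 read was worth 1.91 CPM (counts scaled to a common library total with TMM factors) and 2028 tested genes had no read. Nanog, the gene served by the enhancer, stood at 631, 660 and 641 CPM in vehicle and at 177, 172 and 194 CPM in 4OHT. Counts are per gene symbol, so reads from the exogenous mNanogV5 copy may enter these values in both groups. The 7 stem cell markers, Nanog among them, summed to 5710 to 5900 CPM in vehicle and 5210 to 5450 CPM in 4OHT. Nanog and Pou5f1 fell (log2 fold changes of -1.81 and -0.21) and Sox2 rose (0.18). Zfp42, Esrrb, Dppa5a and Tdgf1 did not pass. The 8 markers of primitive endoderm all rose (adjusted p under 0.05 in edgeR), and their sum went from 6.84 to 8.07 CPM up to 45.8 to 64.1 CPM. In 4OHT replicate 2 Gata4, Sox17 and Sox7 had no read, so their groups overlapped, and Pdgfra had 1 read and Foxa2 had 2. Of 8 fibroblast markers 3 were tested. Thy1 fell from a mean of 15.9 to 6.67 CPM (log2 fold change -1.36), Col1a1 and Col1a2 did not pass (log2 fold changes of 0.1 and 0.9), and Postn and Fap had no read in any library. The summed fibroblast list ran from 17.4 to 18.4 CPM in vehicle and from 8.09 to 9.55 CPM in 4OHT, with Thy1 as the only tested member that fell. The part of these other cell types in the results below was not tested. In bulk RNA fewer cells of a type and less RNA per cell cannot be told apart.

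Of the 10 genes, 5 rose after 4OHT, 1 fell and 4 did not pass the test (edgeR quasi-likelihood test, adjusted p under 0.05). Dusp4, Dusp6, Spry2, Spry4 and Spred2 rose, and Spred1 fell. Among all tested genes 22.4% passed, 11.9% with a rise and 10.5% with a fall. The 10 genes were chosen with earlier results of these data known, so the comparison of shares is descriptive only. The changes were small. Dusp4 rose 1.59-fold, and the other 5 calls lay between 0.84 and 1.24 times the vehicle level. The median log2 fold change was 0.2 over the 10 genes and -0.0026 over all tested genes, and the median of its absolute size was 0.21 against 0.14. In 3 genes the 3 values of one group lay outside those of the other: Spry2 and Spry4 were higher and Spred1 was lower in every 4OHT library. Over all tested genes 31.3% separated in this way, 14.7% with 4OHT above and 16.5% below.

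The number of calls depended on the method. DESeq2 with all libraries called 1 of the 10, Spred1, and 0 rises, with 5 genes at an unadjusted p under 0.05 of which 4 were higher. Without the shallow 4OHT replicate 2, DESeq2 called 5 genes and edgeR 6. EdgeR called 4 without vehicle replicate 1, and 3 without vehicle replicate 2 or 3. Calls over all tested genes also varied. DESeq2 called 944 of 13344 with all libraries and 2338 of 15694 without 4OHT replicate 2. EdgeR called 3233 of 14458 with all libraries and 3140 of 14878 without 4OHT replicate 2. Without vehicle replicates 1, 2 and 3 it called 2591 of 14566, 2368 of 14813 and 2505 of 14833.

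**Figure D1:**
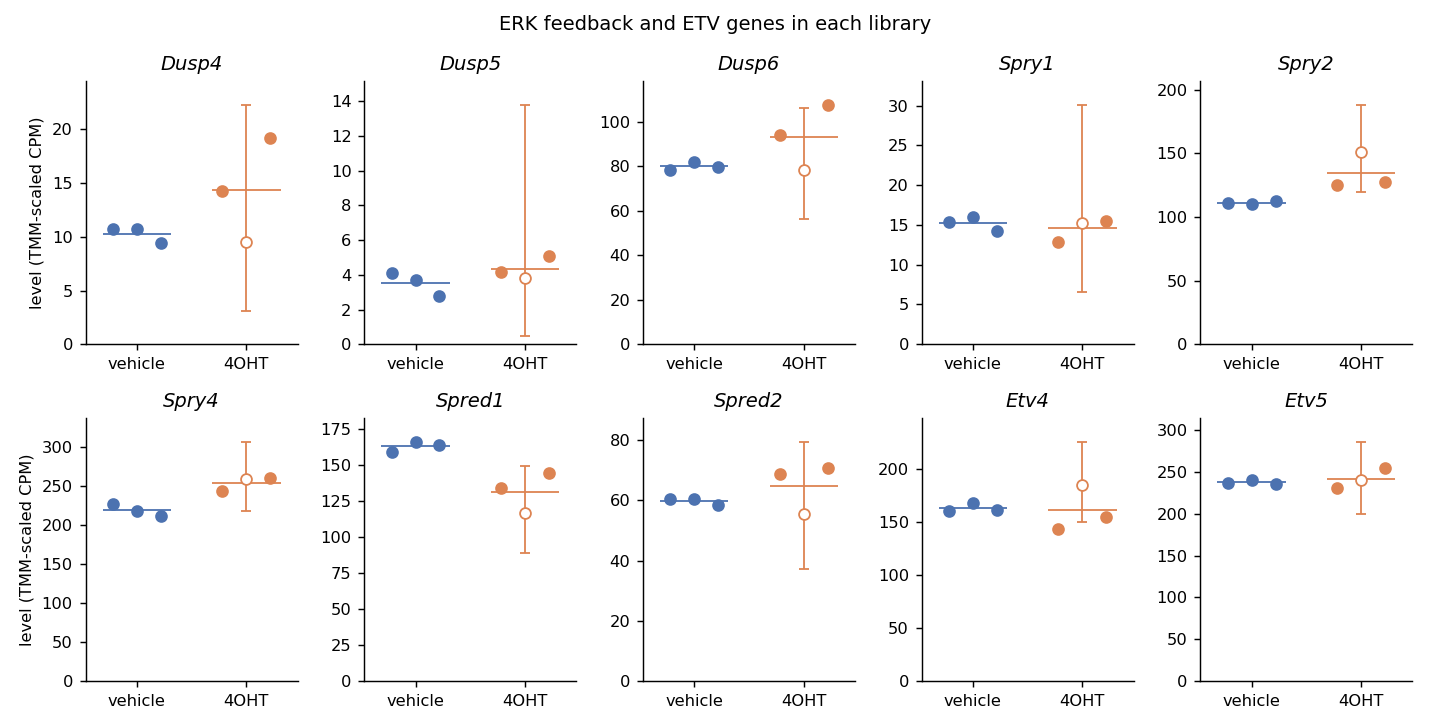
Level of each gene (vertical axis, TMM-scaled CPM from 0) in the 3 vehicle libraries (blue) and the 3 4OHT libraries (orange), in order of replicate, with a line at each group's mean. The open point is 4OHT replicate 2, with the exact Poisson 95% interval of its reads. The 3 4OHT points lie above all vehicle points for Spry2 and Spry4 and below them for Spred1.

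The phosphatase genes all had fold changes above 1, and 2 of the 3 rose. Dusp6 encodes MKP-3, a cytoplasmic phosphatase specific for ERK. It stood at 78.4, 81.9 and 79.7 CPM in vehicle and at 93.8, 78.3 and 108 CPM in 4OHT. Replicates 1 and 3 of the 4OHT group lay above every vehicle library, while replicate 2, with 41 reads, lay just below them. Its log2 fold change was 0.31, with an SE of 0.07 and a 95% interval of 0.16 to 0.45 (edgeR adjusted p = 0.00264), and DESeq2 with all libraries gave an adjusted p of 0.071.

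Dusp4 encodes MKP-2, a nuclear phosphatase of ERK and other MAP kinases. Its levels were 10.7, 10.7 and 9.4 CPM in vehicle and 14.3, 9.55 and 19.2 CPM in 4OHT. The 4OHT libraries were spread out: replicate 3 was the highest, and replicate 2 lay within the vehicle range on only 5 reads, whose exact Poisson 95% interval is 3.1 to 22.3 CPM and covers counting error only. The log2 fold change was 0.67, with an SE of 0.12 and a 95% interval of 0.42 to 0.91 (edgeR adjusted p = 0.000257). It was 0.45 without 4OHT replicate 3 and 0.87 without 4OHT replicate 1, past the test both times, and the adjusted p was 0.0757 in DESeq2 with all libraries. Of all tested genes 96% had a lower log2 fold change than Dusp4.

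Dusp5, which encodes a nuclear phosphatase that binds ERK, was the lowest of the 10 genes per kilobase of transcript. It had 4.1, 3.68 and 2.78 CPM in vehicle and 4.15, 3.82 and 5.09 CPM in 4OHT, the middle value resting on 2 reads. The groups overlapped, and the log2 fold change of 0.34 (95% interval 0.01 to 0.67) did not pass (edgeR adjusted p = 0.138). It passed without 4OHT replicate 1 (log2 fold change 0.49, adjusted p = 0.0308). A gene on the opposite strand, AC137853.2, overlaps 22.1% of the exon bases of Dusp5. Whether reads were counted by strand is not known from the labels, so the value of Dusp5 is uncertain.

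Promoter sequences from RefSeq (GRCm38.p6, 250 bases before to 50 after the start) were found for 7 of the 10 genes. Dusp4, Spry4 and Etv4 had no entry. Both strands were searched for the ETS cores CCGGAA and AGGAAG, AP-1 (TGANTCA), the cyclic AMP element TGACGTCA, the GC box GGGCGG and the CArG box, which is bound by SRF. The 2 ETS cores differ in the base before GGAA and cannot match the same site. AGGAAG was present for 4 of the 7 genes (Dusp5, Dusp6, Spred2 and Etv5) and in 35.4% of all 32851 promoters. CCGGAA was present for Spry2 alone of the 7 and in 14.9% of all promoters. The GC box was present for 5 genes (Dusp5, Spry1, Spred1, Spred2 and Etv5) and in 35.7% of all promoters. AP-1 and the cyclic AMP element were present for none of the 7 (7.81% and 1.79% of all promoters). Dusp5 had 2 CArG boxes, a motif in 1.63% of all promoters. They are side by side, from 82 to 63 bases before the start. A match describes these letters and is not a measured binding site.

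The windows of Dusp6, with the largest call among genes that have a promoter entry, and of Dusp5, with the rarest motif, are shown 5′ to 3′ up to the first annotated exon base of the gene itself. All 214 bases of the Dusp5 window lie in an exon of AC137853.2, the opposite-strand noncoding gene named above, and the Dusp6 window holds 0 annotated exon bases. Capitals mark AGGAAG in Dusp6, here on the opposite strand as CTTCCT, and the CArG boxes in Dusp5. The Dusp6 window is chr10:99262981-99263230 and that of Dusp5 is chr19:53528895-53529108, both on the plus strand of GRCm38.p6.
Dusp6: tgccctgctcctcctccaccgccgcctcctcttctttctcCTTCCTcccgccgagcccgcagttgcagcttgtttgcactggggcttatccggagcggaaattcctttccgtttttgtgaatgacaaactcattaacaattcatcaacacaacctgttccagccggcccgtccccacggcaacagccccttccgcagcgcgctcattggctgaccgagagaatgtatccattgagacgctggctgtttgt
Dusp5: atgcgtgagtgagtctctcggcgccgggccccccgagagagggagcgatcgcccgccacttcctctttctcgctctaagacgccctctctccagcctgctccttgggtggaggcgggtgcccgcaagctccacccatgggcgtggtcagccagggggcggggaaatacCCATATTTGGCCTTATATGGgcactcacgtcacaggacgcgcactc

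Both abundant Sprouty genes rose by a similar small amount and Spry1 did not pass. Spry4 encodes an inhibitor of receptor signalling upstream of RAS and RAF. It had 227, 219 and 212 CPM in vehicle and 244, 260 and 261 CPM in 4OHT. Every 4OHT library exceeded every vehicle library, but the exact Poisson 95% interval of 4OHT replicate 2 (218 to 307 CPM) reaches into the vehicle range. The log2 fold change was 0.21, with an SE of 0.06 and a 95% interval of 0.08 to 0.33 (edgeR adjusted p = 0.0148). The adjusted p was 0.0941 without vehicle replicate 2, 0.0931 without vehicle replicate 3 and 0.0653 in DESeq2 with all libraries.

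Spry2, whose protein binds the adaptor GRB2 and the ubiquitin ligase CBL, had 111, 110 and 113 CPM in vehicle and 125, 151 and 128 CPM in 4OHT. The groups did not overlap, and the highest value was that of the shallow replicate 2, with 79 reads. The log2 fold change was 0.21, with an SE of 0.06 and a 95% interval of 0.08 to 0.33 (edgeR adjusted p = 0.0194). The call is close to the threshold: the adjusted p was 0.0673, 0.117 and 0.0542 without vehicle replicates 1, 2 and 3 and 0.0578 with quantile normalization in limma-voom. It was 0.165 in DESeq2 with all libraries and 0.0537 in DESeq2 without 4OHT replicate 2.

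Spry1, the third Sprouty gene, had 15.3, 16 and 14.3 CPM in vehicle and 12.9, 15.3 and 15.5 CPM in 4OHT. The groups overlapped, with 4OHT replicate 1 the lowest of the 6 libraries. The log2 fold change was -0.1 (95% interval -0.3 to 0.1, edgeR adjusted p = 0.491), and it was 0.035 without 4OHT replicate 1. The opposite-strand gene Gm42922 overlaps 24.4% of the exon bases of Spry1, so its value is uncertain.

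The 2 Spred genes changed in opposite directions. Spred1 encodes a membrane-bound inhibitor that recruits neurofibromin to RAS. It had 159, 166 and 164 CPM in vehicle and 134, 116 and 144 CPM in 4OHT. All 4OHT libraries lay below all vehicle libraries. Spred1 fell by 0.25 on the log2 scale, with an SE of 0.06 and a 95% interval of -0.38 to -0.12 (edgeR adjusted p = 0.00633). It passed under all 13 alternative settings, with log2 fold changes from -0.3 to -0.2 and an adjusted p of at most 0.0303.

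Spred2, its paralog with the same domain types, had 60.4, 60.4 and 58.6 CPM in vehicle and 68.8, 55.4 and 70.7 CPM in 4OHT. Replicates 1 and 3 of 4OHT lay above all vehicle libraries and replicate 2, with 29 reads, below them. The log2 fold change was 0.2, with an SE of 0.06 and a 95% interval of 0.07 to 0.34 (edgeR adjusted p = 0.0245). The adjusted p was 0.0699, 0.11 and 0.119 without vehicle replicates 1, 2 and 3, and 0.436 in DESeq2 with all libraries.

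Upstream windows of both Spred genes are shown because their RNAs moved in opposite directions. Capitals mark AGGAAG in Spred2, which has 1 match in the part shown, from 93 to 88 bases before the RefSeq start. In Spred1, where neither ETS core was found in the 300 bases searched, capitals mark the GC box, once on the opposite strand as CCGCCC. Spred2 also has a GC box, in the part not shown. Whether any motif relates to the direction of change was not tested. The Spred2 window is chr11:19924192-19924374 and that of Spred1 is chr2:117120821-117121070, both on the plus strand of GRCm38.p6.
Spred2: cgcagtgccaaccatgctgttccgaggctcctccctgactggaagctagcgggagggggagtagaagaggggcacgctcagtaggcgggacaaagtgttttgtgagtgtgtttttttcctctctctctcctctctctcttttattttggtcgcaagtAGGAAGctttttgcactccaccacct
Spred1: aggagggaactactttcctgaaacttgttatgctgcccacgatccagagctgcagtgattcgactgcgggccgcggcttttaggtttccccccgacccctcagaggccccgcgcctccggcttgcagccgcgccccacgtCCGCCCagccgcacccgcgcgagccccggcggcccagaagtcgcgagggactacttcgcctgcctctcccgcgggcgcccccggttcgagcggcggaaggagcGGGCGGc

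The ETS factor genes, both known targets of FGF and ERK signalling, did not pass the test. Etv5 had 237, 241 and 236 CPM in vehicle and 231, 241 and 255 CPM in 4OHT. The 4OHT values lay on both sides of the vehicle values. The log2 fold change was 0.027 with a 95% interval of -0.1 to 0.15 (edgeR adjusted p = 0.799). Etv4 had 161, 168 and 161 CPM in vehicle and 144, 185 and 155 CPM in 4OHT. Replicate 2 was above and replicates 1 and 3 were below all vehicle libraries, and the log2 fold change was -0.1 (95% interval -0.24 to 0.04, edgeR adjusted p = 0.325). These intervals leave room for a change of about the size seen in Spry2 for Etv4 downwards, and for a smaller one in Etv5.

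**Figure D2:**
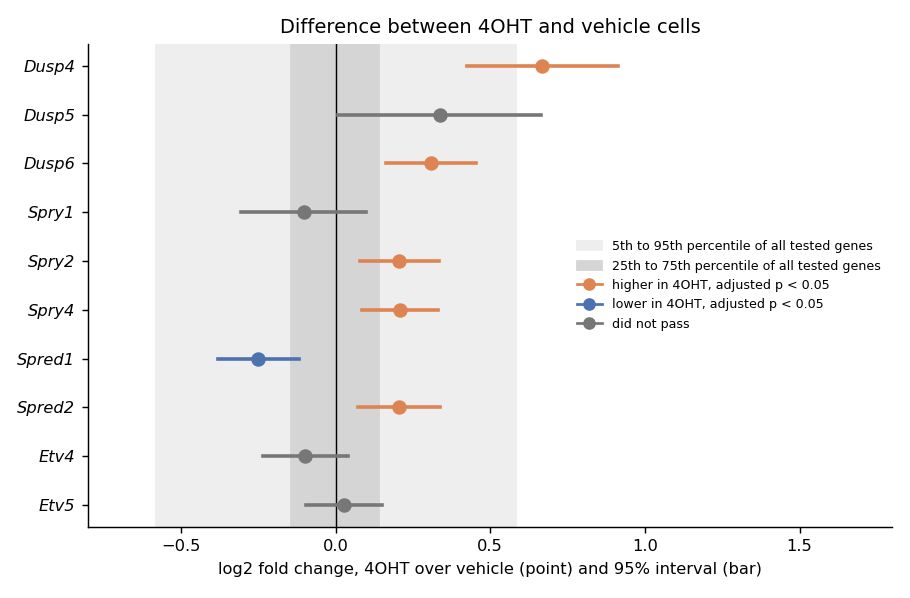
Log2 fold change of 4OHT over vehicle (point) with its 95% interval (bar) for each gene, coloured by the edgeR call, over grey bands for the middle of all 14458 tested genes. Dusp4 at 0.67 lies beyond the 95th percentile of all tested genes (0.58), and the other genes lie between -0.25 and 0.34.

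Levels can be compared between genes only per length, here as CPM per kilobase of the longest GENCODE transcript. In vehicle cells the order was Etv4 (68.2 ± 1.78, SD, n = 3), Etv5 (59.9 ± 0.615), Spry2 (53.3 ± 0.715) and Spry4 (46.1 ± 1.56). Dusp6 followed with 28.6 ± 0.63, Spred1 with 27.1 ± 0.627 and Spred2 with 13.4 ± 0.231 CPM per kilobase. Spry1 (5.48 ± 0.31), Dusp4 (3.75 ± 0.273) and Dusp5 (1.42 ± 0.273) were the lowest. No pair of neighbours in this order overlapped among the vehicle libraries. In 4OHT cells Spry2 had a higher mean (64.5 ± 6.8, SD, n = 3) than Etv5 (60.9 ± 3.06). In these libraries Etv4 with Etv5, both of these with Spry2, and Spry1 with Dusp4 overlapped, and the order was otherwise the same. The top of the order depends on the transcript length used. With the median transcript length, which short partial transcripts of Etv4 and Etv5 set at 0.67 and 0.489 kilobases, Etv5 came first, and Dusp6 (49.5) came before Spry4.

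**Figure D3:**
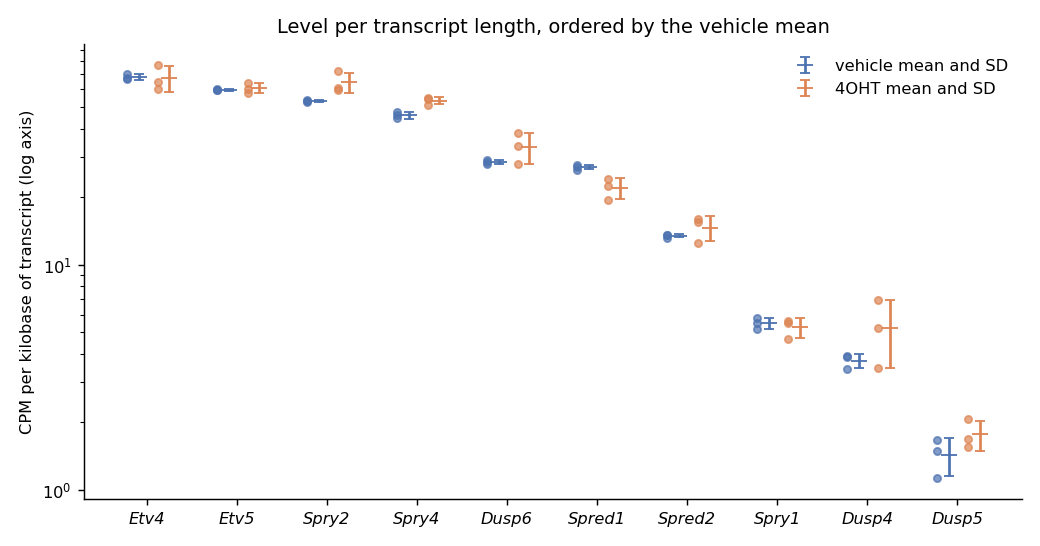
CPM per kilobase of the longest transcript (vertical log axis) for each gene in vehicle (blue) and 4OHT (orange) libraries, as single libraries (dots) and mean with SD (bars). The genes are ordered by the vehicle mean, from Etv4 at 68.2 to Dusp5 at 1.42.

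Levels per kilobase were also summed over the genes of each family among the 10, of which Spred and ETV have only 2 each. Spry3, Spred3 and Etv1 are further genes of these families and are not in the sums. Of the sum over Dusp4, Dusp5 and Dusp6, Dusp6 held 84.7% ± 1.4 (SD, n = 3) in vehicle. In 4OHT it held 82.9% ± 1.92 (SD, n = 3). Dusp9, another ERK phosphatase gene, picked after its values were seen, is outside this sum. It had a mean of 196 CPM in vehicle on a longest transcript of 2.722 kilobases. Dusp6 had 80.0 CPM on 2.796 kilobases. The phosphatase sum was 33.6, 34.7 and 33.1 CPM per kilobase in vehicle and 40.4, 33 and 47.5 in 4OHT, so the groups overlapped. The Sprouty sum was 107, 104 and 104 against 116, 132 and 122 CPM per kilobase, higher in every 4OHT library. The Spred sum was 40, 41.2 and 40.5 against 37.7, 31.8 and 39.9 CPM per kilobase, lower in every 4OHT library though the difference is small in replicate 3. The ETV sum was 128 ± 2.39 (SD, n = 3) in vehicle and 128 ± 9.88 (SD, n = 3) in 4OHT.

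The ratio of reads between 2 genes of a library needs neither a length nor a library factor. Spred1 had 2.63, 2.75 and 2.8 reads for each read of Spred2 in vehicle libraries and 1.95, 2.1 and 2.04 in 4OHT libraries. Of the 4OHT libraries the shallow replicate 2 was the highest for this ratio, and it was below every vehicle library. Its value rests on 61 Spred1 and 29 Spred2 reads, and no interval of the ratio was computed. The ratio of Spry1 to Spry4 was 0.0676, 0.0731 and 0.0673 in vehicle and 0.053, 0.0588 and 0.0596 in 4OHT, and that of Spry1 to Spry2 was also lower in every 4OHT library. Of the 8 ratios within families these 3 separated the groups. The other 5, among them Spry2 to Spry4 (0.49, 0.502 and 0.532 against 0.513, 0.581 and 0.489) and Etv4 to Etv5 (0.678, 0.699 and 0.682 against 0.623, 0.77 and 0.608), overlapped. No test was made of these ratios, and the Spry1 value of 4OHT replicate 2 rests on 8 reads. Both Spry1 ratios share that numerator. A share of separating ratios over other gene pairs was not computed, and by level 31.3% of all tested genes separated.

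**Figure D4:**
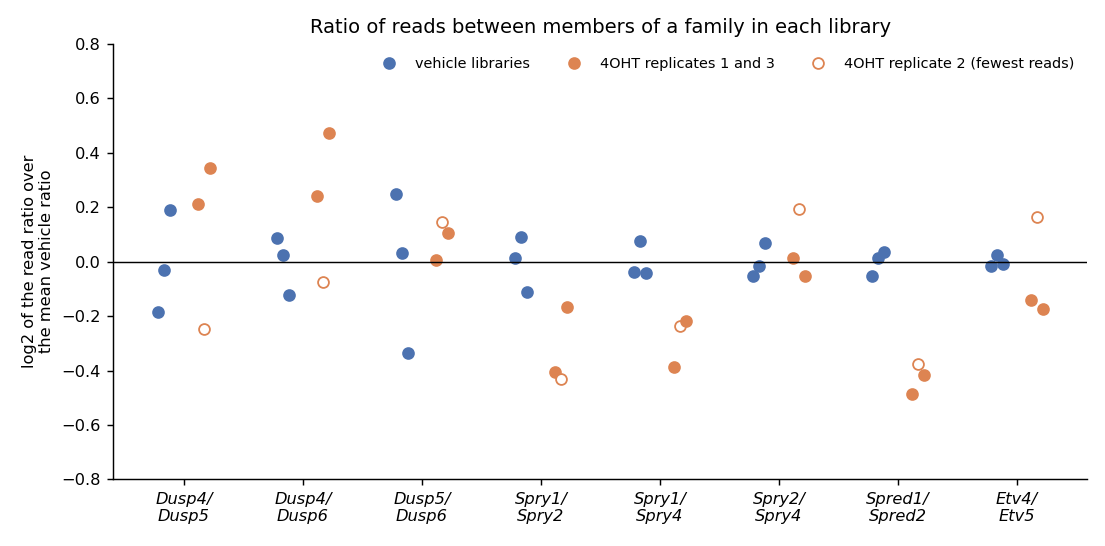
Ratio of reads between members of a family in each library, as log2 of the ratio over the mean vehicle ratio (vertical axis), for vehicle (blue) and 4OHT libraries (orange, open for replicate 2). Spred1 to Spred2 went from a mean of 2.73 to 2.03, and the 4OHT points of this ratio and of both Spry1 ratios lie below all vehicle points.

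The other genes of the pathway, a list of 94 by role, moved in both directions. Of 88 tested genes 16 rose, 15 fell and 57 did not pass, so 35.2% were called against 22.4% of all tested genes. The list was chosen with earlier results of these data known, so these shares are descriptive only. The median log2 fold change of the list was 0.035. DESeq2 with all libraries called 4 rises and 12 falls, against 552 and 392 among all 13344 genes it tested. Levels below are mean ± SD over 3 libraries of a group. The log2 fold changes are edgeR estimates. They can differ from the ratio of these means, in which the shallow 4OHT replicate 2 counts as much as any library. Other genes overlap 5.8% of the exon bases of Rps6ka1, 3.04% of those of Fgfr2, 2.67% of those of Fgf10 and 1.66% of those of Fgfr1, so a small part of their reads is uncertain.

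Among 6 tested ligand genes 2 rose and 2 fell. Fgf4, which encodes the main FGF of stem cells, stood at 224, 227 and 230 CPM in vehicle and at 177, 176 and 192 CPM in 4OHT (log2 fold change -0.3, edgeR adjusted p = 0.000722). Fgf17, a ligand of the FGF8 subfamily, fell from 38.2 ± 0.672 to 23.8 ± 1.11 CPM, a log2 fold change of -0.66. Fgf10 rose from 3.4 ± 0.0893 to 5.64 ± 1.79 CPM, a 4OHT mean that includes 7.64 CPM on 4 reads in replicate 2. Its edgeR log2 fold change was 0.44 (adjusted p = 0.0302). The call was lost without any 1 of the vehicle libraries or without 4OHT replicate 3, in DESeq2 and with quantile normalization.

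Of 10 receptor genes 1 rose and 4 fell. Fgfr1, the main FGF receptor of these cells, did not pass (89.2 ± 2.51 and 85.2 ± 2.62 CPM, log2 fold change -0.09, 95% interval -0.21 to 0.04). Fgfr2, a receptor that primitive endoderm cells also use, rose from 3.72 ± 0.654 to 7.21 ± 0.408 CPM. Its log2 fold change was 0.95 (edgeR adjusted p = 3.05e-05), and the value of 4OHT replicate 2 rests on 4 reads. The primitive endoderm markers given above also rose, and a link between these rises was not tested. The receptor gene Kit fell from 118 ± 3.0 to 79.3 ± 1.01 CPM, a log2 fold change of -0.58. Erbb3 fell from 15.6 ± 0.874 to 7.84 ± 3.5 CPM, with 3.82 CPM on 2 reads in 4OHT replicate 2. The edgeR log2 fold change of Erbb3 was -0.69.

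Of 10 genes of adaptors and exchange factors 1 rose and 2 fell. Frs3, an FGF receptor substrate, fell from 9.11 ± 0.333 to 4.86 ± 1.01 CPM, with 2 reads in 4OHT replicate 2. Its edgeR log2 fold change was -0.79, but the opposite-strand gene Frs3os overlaps 16.3% of its exon bases. Shc1, an adaptor, fell from 93.0 ± 1.47 to 74.1 ± 2.27 CPM, a log2 fold change of -0.35. Sos2, a RAS exchange factor, rose with a log2 fold change of 0.6 from 5.37 ± 1.09 CPM, a call lost in DESeq2 with all libraries and with quantile normalization. Of 12 genes of RAS proteins and their GTPase activators 1 fell, Mras, from 83.6 ± 3.25 to 46.7 ± 0.788 CPM, which is a log2 fold change of -0.83 (edgeR adjusted p = 6.43e-09), and none rose. Nf1, the neurofibromin gene, picked after its values were seen, did not pass (50.8 ± 3.22 and 54.7 ± 5.05 CPM), except without 4OHT replicate 3 (adjusted p = 0.0163).

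Of 14 kinase and scaffold genes 3 rose and none fell. Mapk3, which encodes ERK1, did not pass, with 42.0 ± 2.15 CPM in vehicle and 44.2 ± 1.56 CPM in 4OHT (log2 fold change 0.05, 95% interval -0.09 to 0.2), and without vehicle replicate 1 its log2 fold change was -0.0032. Rps6ka1, an ERK-activated kinase gene, rose from 196 ± 1.28 to 253 ± 13.5 CPM, which is a log2 fold change of 0.38 (edgeR adjusted p = 7.41e-05). Rps6ka2 rose with a log2 fold change of 0.29, but its transcript has near-identical copies in 2 other genes (95% identity over 50% of its length), and DESeq2 with all libraries did not call it. Map2k2, which encodes the ERK kinase MEK2, rose with a log2 fold change of 0.24 (edgeR adjusted p = 0.0156), and its call was lost without vehicle replicate 2 or 4OHT replicate 3, in DESeq2 and with quantile normalization.

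Of 13 other tested inhibitor genes 2 rose and 2 fell. Dusp16, a phosphatase that acts mainly on JNK and p38, fell from 44.2 ± 0.452 to 22.8 ± 0.793 CPM, which is a log2 fold change of -0.97 (edgeR adjusted p = 3.26e-09). Il17rd, also called SEF, an antagonist of FGF signalling, fell from 54.0 ± 2.92 to 39.5 ± 4.83 CPM. Its edgeR log2 fold change was -0.37. Cblb, a ubiquitin ligase gene, rose from 22.9 ± 0.848 to 30.6 ± 4.9 CPM, with 36.3 CPM on 19 reads in 4OHT replicate 2. Its edgeR log2 fold change was 0.29, and its call was lost without vehicle replicate 1 and in DESeq2 with all libraries. Dusp9, another ERK phosphatase gene of stem cells, picked after its values were seen, did not pass (196 ± 4.46 and 206 ± 18.7 CPM), except without 4OHT replicate 1 (adjusted p = 0.0136).

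Of 23 tested immediate early and ETS response genes 7 rose and 4 fell. Epha4, an ephrin receptor gene, rose from 30.2 ± 1.44 to 78.7 ± 8.85 CPM. Its edgeR log2 fold change was 1.45 (adjusted p = 1.04e-11). Junb, an AP-1 subunit, fell from 43.0 ± 0.325 to 29.2 ± 4.69 CPM. Ets2, an ETS factor whose protein ERK phosphorylates, fell from 48.3 ± 0.709 to 33.0 ± 3.15 CPM. Their edgeR log2 fold changes were -0.69 and -0.62. Prdx2, on the opposite strand, overlaps 7.52% of the exon bases of Junb. Etv1, the third gene of the Etv4 and Etv5 subfamily, picked after its values were seen, rose from 23.4 ± 0.582 to 32.4 ± 3.39 CPM. Its edgeR log2 fold change was 0.39 (adjusted p = 0.000492). Etv1 lay above the vehicle range in every 4OHT library, but DESeq2 with all libraries did not call it (adjusted p = 0.067).

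**Figure D5:**
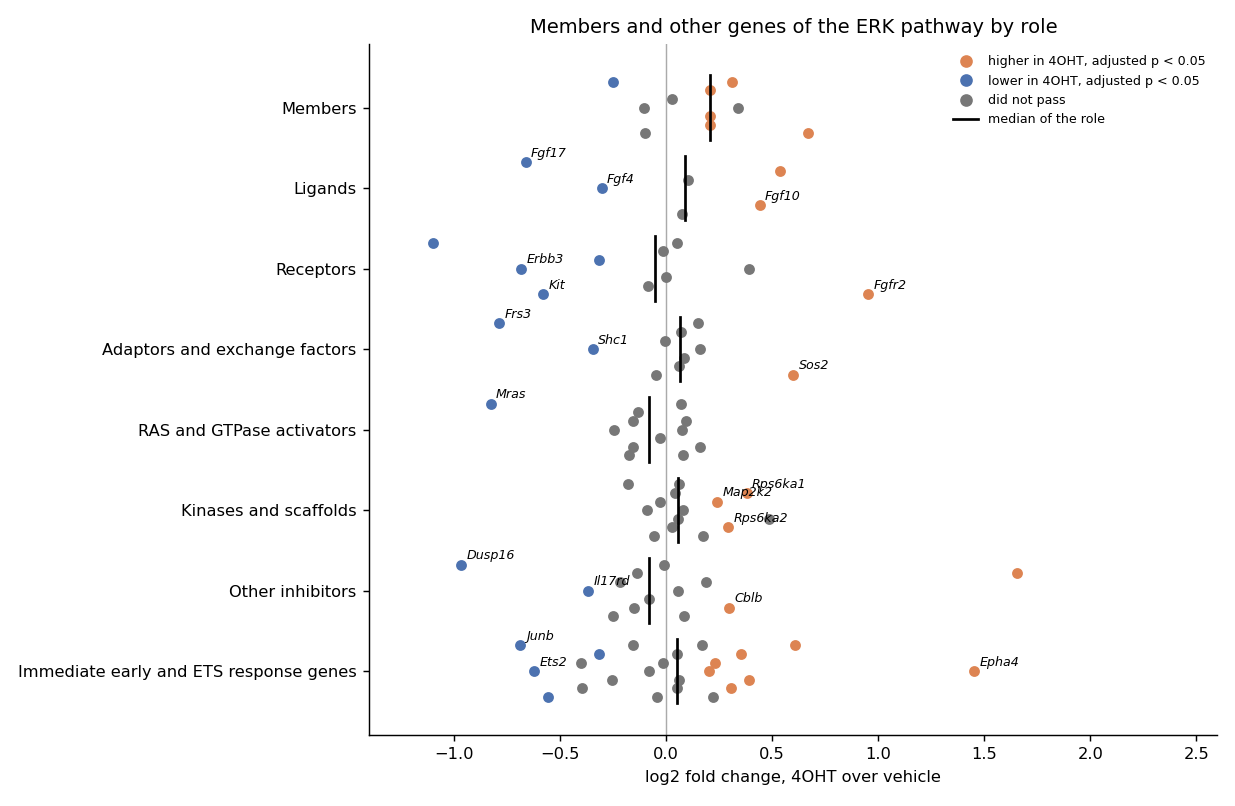
Log2 fold change of 4OHT over vehicle (horizontal axis) for the 10 genes described here (top row, members) and 88 other tested pathway genes by role, coloured by the edgeR call, with a black line at the median of each row. Vertical placement within a row has no meaning, and the medians lie between -0.08 and 0.2.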

How the data were processed

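Polyadenylated RNA of 6 mouse stem cell samples was sequenced from NEBNext libraries, per the labels' protocols. The deposited file holds whole-number read counts per gene symbol, and its totals differ as raw counts do. The submitters' processing notes name STAR, DESeq and mm9. Neither counting tool, annotation nor strandedness is given in the sources used here. No column of other samples was present (0).

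Counts were tested in edgeR 4.0.16 (R 4.3.3): filterByExpr with a minimum count of 10, TMM factors, a quasi-likelihood fit with treatment as its term, a prior count of 0.125 and Benjamini-Hochberg adjustment over 14458 genes at 0.05. Intervals are at the 95% level. Precision in 4OHT replicate 2 is limited by its 515388 counts. Alternatives were RLE factors, other count filters, DESeq2 1.42.0, limma-voom 3.58.1 with quantile normalization, a replicate block and each library left out. DESeq2 without 4OHT replicate 2 was added after seeing the data. The edgeR procedure was tested on simulated data, whose outcome is not given here, so no error rate is claimed for these libraries. The members and lists were chosen with earlier results of these data known. Named pathway genes are up to 3 called genes of each role with the smallest adjusted p, and Mapk3, Fgf4, Fgfr1 and Fgfr2; a further gene of the rule is not reported here.

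Same-numbered samples deviated together (correlations of 0.57, 0.147 and 0.388 over 3632 genes with log2 CPM above 6), so the numbers may pair the samples, though no label says so. Vehicle replicate 2 correlated more with 4OHT replicate 3 (0.448). No pair of libraries of a group agreed within sampling noise (lowest chi-square per degree of freedom 1.18). Lengths, overlaps and copies (blastn 2.17.0) come from GENCODE vM21 on GRCm38, which differs from mm9, and promoters from RefSeq.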

Additional observations from a re-analysis of the deposited data

How the results depend on the processing

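Of the 10 genes, 6 were called, 5 higher and 1 lower, and the calls were the same in number with the replicate block, which changed no call of the 10 and gave 4073 genes in all against 3233. DESeq2 with all libraries called 944 genes (552 higher and 392 lower), 1 of the 10 (0 higher) and 16 pathway genes (4 higher). With quantile normalization in limma-voom 2093 genes passed (1125 higher and 968 lower), 9 pathway genes rose, and Etv5 had a log2 fold change of -0.016. Leaving out 1 library gave 3 to 7 calls among the 10, with 2 to 6 higher, and 2368 to 3950 calls among all tested genes. It gave log2 fold changes of -0.23 to 0.035 for Spry1 and -0.036 to 0.087 for Etv5, both not past the test. The cause was not tested. Dusp4, Dusp6, Spry2, Spry4 and Spred2 kept a positive and Spred1 a negative sign under every alternative run. Levels resting on few reads in 4OHT replicate 2, those of Dusp4, Dusp5 and Spry1, could not show differences of the sizes seen.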
